A study of Homo sapiens with 23 samples.

Results

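RPMI-8226 is a human multiple myeloma line, malignant plasma cells grown in culture, in which a guide RNA against IRF4 was compared with cells labelled EV. The 6 libraries of this comparison, 3 with the IRF4 guide and 3 with EV, were chosen by their labels among 23 libraries of the series, and every expressed gene was examined. All the cells received doxycycline for 48 hours, which switched on the guide, so the EV cells had the drug too. The other 17 libraries came from the myeloma lines H929 (6), MM1S (5) and OPM2 (6) with the same labels, and served as a reference for what differed in RPMI-8226. The study's title asks whether IRF4 holds down the cell death genes BMF and BIM (BCL2L11). The sources used here do not give what EV stands for, the letters of the IRF4 guide or whether the cells were clones or pools. The labels do not tie replicates to separate cultures, so p-values measure the spread between these libraries, and that spread may be technical. A bulk library cannot tell fewer cells of a kind from less RNA per cell. With 1 guide at 1 time point, an early effect of IRF4 loss and a later or off-target one cannot be told apart. An earlier difference between the guide and EV cell populations cannot be told apart from these either.

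IRF4 is a transcription factor of the interferon regulatory factor family that plasma cells need to form and to live. It binds DNA weakly on its own and pairs with partners such as PU.1 and BATF, or binds interferon response elements, and it can raise or lower its targets. Myeloma cells keep IRF4 at a high level and depend on it, and MYC, PRDM1 and genes of metabolism are among the targets described in them. RPMI-8226 carries a translocation that activates MAF, a transcription factor that drives CCND2 and the integrin gene ITGB7 in this subgroup of myeloma. Of the other lines, MM1S belongs to the MAF subgroup too.

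A large part of the RPMI-8226 transcriptome differed between the IRF4 guide and EV cells. Of 16468 genes tested, 5587 (33.9%) passed an adjusted p under 0.05. The test was edgeR's quasi-likelihood F test with Benjamini-Hochberg adjustment over all tested genes, as for every adjusted p in the text, and log2 fold changes are IRF4 guide over EV ± SE. Of all tested genes, 3162 (19.2%) were higher and 2425 (14.7%) lower with the IRF4 guide, and the median log2 fold change over all of them was 0.04. These shares are the background for the counts of each gene list below. The lists were chosen with earlier results of these data known, so their counts describe the lists and do not test them. The larger changes leaned upwards: 1081 genes rose and 419 fell at least 2-fold, 400 and 170 at least 4-fold, and 150 and 75 at least 8-fold. In 5146 of the called genes (31.2% of those tested) the 3 IRF4 guide libraries did not overlap the 3 EV libraries. Protein-coding genes were called in 36.6% of cases, and among 1200 long noncoding RNA genes 175 were higher and 50 lower.

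**Figure D1:**
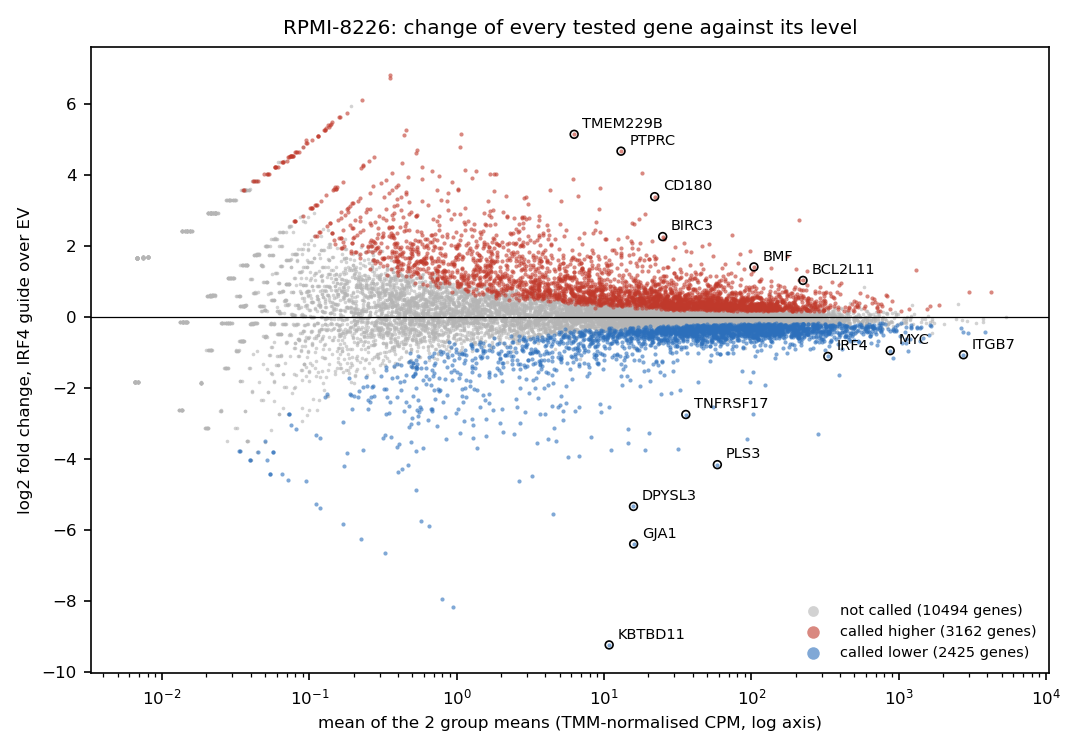
Each point is a tested gene with a count in RPMI-8226 (16081 genes, 387 others being at 0 in all 6 libraries), its level on the x axis (CPM, log axis) and its log2 fold change, IRF4 guide over EV, on the y axis. Red points (3162) were called higher and blue points (2425) lower, and the straight strings of points at the left are genes at or near 0 counts in a group, whose plotted value depends on the prior count.

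The 6 libraries held 8974460 to 26133179 counts, the smallest being EV replicate 3, and pairs within a group had Pearson r of 0.991 to 0.995 across genes, which are not independent replicates. The first principal component took 76.3% of the variance and separated the guides. IRF4 guide replicate 2 lay nearest the EV libraries on it and also kept the most IRF4 RNA. Among the 1081 genes that rose at least 2-fold, replicate 2 was the lowest of the 3 IRF4 guide libraries in 671 (62.1%) and replicate 3 the highest in 603 (55.8%). The 419 genes that fell at least 2-fold did not show this order: replicate 2 was the highest of the 3 in 110 (26.3%) and the lowest in 159 (37.9%), while replicate 1 was the highest in 179 (42.7%). The part of residual IRF4 in these differences was not tested.

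IRF4 itself, on chromosome 6, stood at 482, 461 and 409 CPM with EV and 193, 250.1 and 187 with the IRF4 guide. CPM are counts scaled to the library total, TMM-normalised. The groups did not overlap, and the gene fell 2.15-fold (log2 fold change -1.10 ± 0.18, adjusted p = 0.000173). RNA level is only a partial check of a guide, because a cut gene can still be transcribed. Of the genes next to IRF4, DUSP22 had a log2 fold change of -0.10 ± 0.08 (adjusted p = 0.373) and EXOC2 -0.20 ± 0.10 (adjusted p = 0.123), and neither was called. HUS1B, which overlaps EXOC2, and GMDS, further along, fell by 1.43 and 0.55 on the log2 scale. Strand is not stated for the counting, so reads of overlapping genes may be mixed.

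BMF, which neutralises pro-survival BCL2 proteins, stood at 63.6, 48.97 and 57.4 CPM with EV and 172, 116 and 166 with the IRF4 guide. Every IRF4 guide library was above every EV library, and the rise was 2.68-fold (log2 fold change 1.42 ± 0.13, adjusted p = 1.35e-08). Its log2 fold change was larger elsewhere, 3.30 in H929, 1.80 in MM1S and 3.24 in OPM2, and RPMI-8226 differed from the mean of these by -1.36 ± 0.15 (adjusted p = 2.34e-07). BCL2L11 (BIM), a death sensor of the same class, stood at 152, 154 and 134 CPM with EV and 307, 286 and 312 with the IRF4 guide, 2.06-fold higher (log2 fold change 1.04 ± 0.08, adjusted p = 2.59e-11), also without overlap. Its change differed from that of the other lines by 0.24 ± 0.09, which missed the threshold (adjusted p = 0.0561). MYC, which drives cell growth, stood at 1194, 1145 and 1113 CPM with EV and 613, 568 and 622 with the IRF4 guide and fell (log2 fold change -0.94 ± 0.10, adjusted p = 2.81e-08). PRDM1 (BLIMP1), the repressor that fixes the plasma cell state, went from 97.8 to 63.6 CPM (log2 fold change -0.62 ± 0.08, adjusted p = 7.47e-07).

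**Figure D2:**
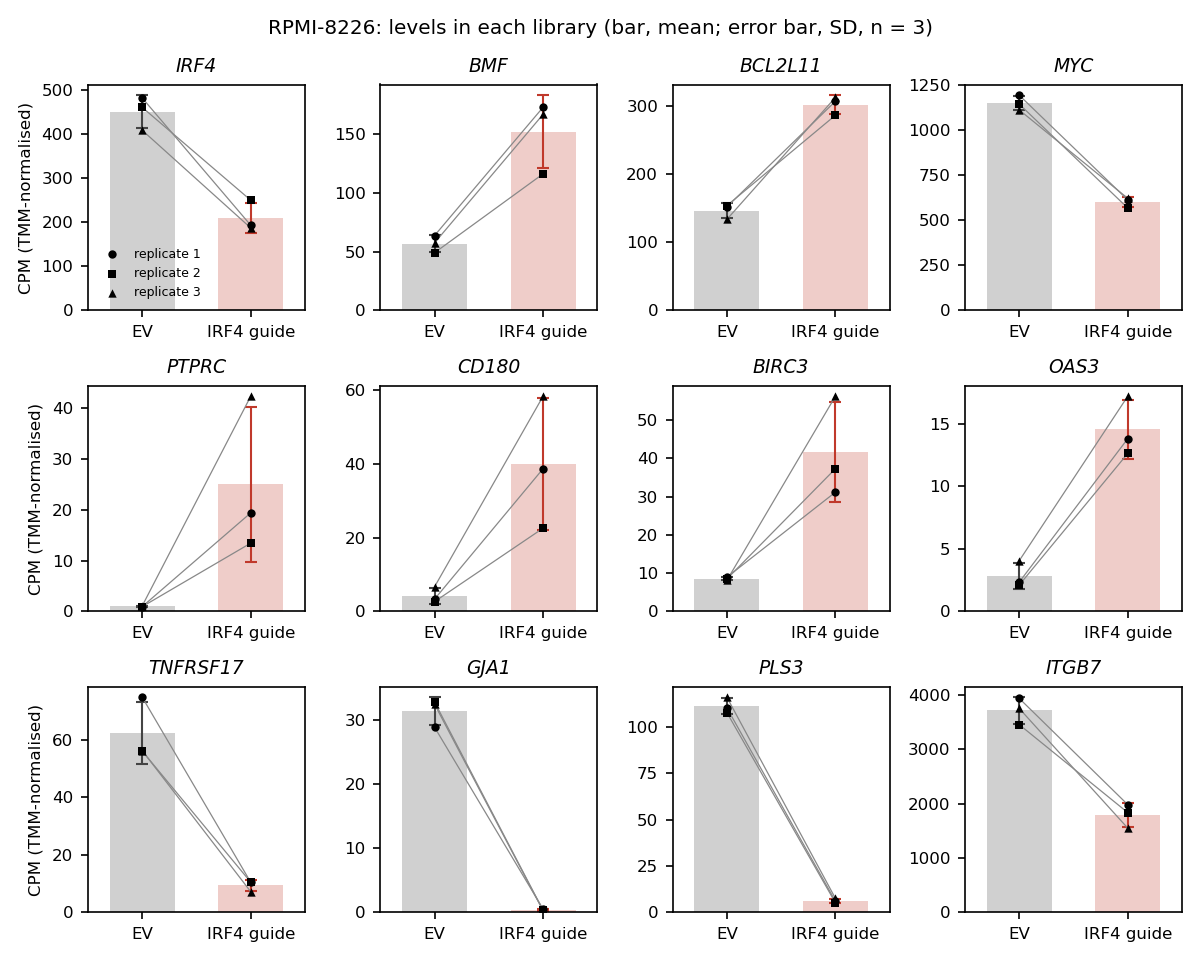
Levels of 12 genes in the 6 RPMI-8226 libraries (y axis, TMM-normalised CPM, from 0). Bars are group means, error bars the SD over 3 libraries, and lines join libraries with the same replicate number. The groups do not overlap for any of the 12 genes, which the rule of choice required for PTPRC, CD180, GJA1 and PLS3. PTPRC, CD180, BIRC3 and OAS3 were highest in IRF4 guide replicate 3.

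The wider death machinery moved unevenly. Of 10 tested pro-apoptotic BCL2 family genes 5 rose and 2 fell, with a median log2 fold change of 0.31. BIK, which triggers death from the endoplasmic reticulum, went from 13.99 to 20.4 CPM (log2 fold change 0.55 ± 0.15, adjusted p = 0.00464). BBC3 (PUMA), which blocks every pro-survival member, went from 12.6 to 18.5 CPM (log2 fold change 0.54 ± 0.18, adjusted p = 0.0243), and the pore former BAX went from 25.1 to 30.1 CPM (log2 fold change 0.25 ± 0.10, adjusted p = 0.0484). PMAIP1 (NOXA), an MCL1 antagonist, went from 49.3 to 39.7 CPM (log2 fold change -0.31 ± 0.12, adjusted p = 0.0469), and BAK1, the other pore former, went from 46.8 to 36.1 CPM (log2 fold change -0.38 ± 0.09, adjusted p = 0.00118). Leaving out IRF4 guide replicate 1 or 2 or EV replicate 2 or 3 ended the calls of BAX and BBC3 and left 3 rises in the list. Leaving out any 1 of the 6 libraries ended that of PMAIP1. With limma on the deposited log2 values 2 rises were called, and the calls of BIK, BBC3, BAX and PMAIP1 ended. The call of BAX also ended under RLE size factors, no filter on low counts, the stricter filter and DESeq2. Both BAX and BBC3 lost theirs in the RPMI-8226 libraries alone. BID, BAD and HRK had log2 fold changes of 0.18 ± 0.10, -0.16 ± 0.13 and 0.37 ± 0.26 and were not called.

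Among 5 tested pro-survival members 2 rose and 1 fell (median -0.12). BCL2 stood at 108, 95.2 and 102 CPM with EV and 142, 117 and 149 with the IRF4 guide (log2 fold change 0.42 ± 0.10, adjusted p = 0.0017). BCL2L1 (BCL-XL), which fell, stood at 155, 156 and 136.3 CPM with EV and 128, 135.7 and 123 with the IRF4 guide (log2 fold change -0.21 ± 0.08, adjusted p = 0.031). BCL2 and BCL2L1 thus changed in opposite directions, both without overlap, though for BCL2L1 EV replicate 3 lay just above IRF4 guide replicate 2. BCL2A1 rose from a trace level: it went from 0.277 to 1.100 CPM (log2 fold change 1.91 ± 0.50, adjusted p = 0.00407). The call of BCL2L1 ended without IRF4 guide replicate 1 or 3 or EV replicate 1 or 2, and that of BCL2A1 without IRF4 guide replicate 3 or EV replicate 2. Both also ended with limma on the deposited log2 values, and that of BCL2L1 with no filter on low counts. MCL1, on which many myeloma lines depend, had a log2 fold change of -0.14 ± 0.11 (adjusted p = 0.374), and BCL2L2 -0.12 ± 0.16 (adjusted p = 0.629). BCL2L1 and MCL1 both changed more negatively here than the mean of the other lines, by -0.57 ± 0.09 (adjusted p = 1.63e-05) and -0.56 ± 0.13 (adjusted p = 0.0016).

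Of 24 tested caspases, death receptors and inhibitors, 10 rose and 2 fell (median 0.29). BIRC3 (cIAP2), an inhibitor that also shapes NF-kB signalling, stood at 8.93, 8.49 and 8.12 CPM with EV and 31.1, 37.3 and 56.2 with the IRF4 guide and rose 4.84-fold (log2 fold change 2.28 ± 0.23, adjusted p = 5.64e-07). The death ligand TNFSF10 (TRAIL) went from 3.63 to 10.4 CPM (log2 fold change 1.54 ± 0.20, adjusted p = 8.60e-07), and CASP8, the caspase that death receptors activate, went from 76.6 to 114 CPM (log2 fold change 0.57 ± 0.08, adjusted p = 2.28e-06). The death receptor FAS went from 8.49 to 15.4 CPM (log2 fold change 0.83 ± 0.15, adjusted p = 6.98e-05). The list's rises thus held a ligand, a receptor and an inhibitor. Among the genes that fell was HTRA2, a mitochondrial protease (-0.44 ± 0.10; named after its values were seen).

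The largest rises and falls were picked among called genes of at least 5 CPM whose groups did not overlap, 15 each way. Of the 15 rises, TMEM229B stood at 0.535, 0.235 and 0.110 CPM with EV and 10.9, 14.3 and 11.4 with the IRF4 guide (log2 fold change 5.16 ± 0.24, adjusted p = 4.97e-16). PTPRC (CD45), the tyrosine phosphatase of blood cells that plasma cells lower as they mature, stood at 0.946, 0.939 and 1.097 CPM with EV and 19.4, 13.5 and 42.4 with the IRF4 guide (log2 fold change 4.68 ± 0.40, adjusted p = 5.03e-08). CD180, a Toll-like receptor homologue of B cells, stood at 3.33, 2.66 and 6.69 CPM with EV and 38.7, 22.6 and 58.4 with the IRF4 guide (log2 fold change 3.40 ± 0.41, adjusted p = 1.37e-05). In these 3 genes the groups lay far apart, and for PTPRC and CD180 the IRF4 guide libraries also differed among themselves by over 2-fold. Replicate 3 was the highest IRF4 guide library in 14 of the 15, TMEM229B being the exception.

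Other large rises were of immune surface and signalling genes. CD48, a SLAM family ligand, went from 0.493 to 5.38 CPM (log2 fold change 3.38 ± 0.41, adjusted p = 4.40e-06). In the other lines it was abundant and called higher in none, with log2 fold changes of -0.74 in H929, -0.12 in MM1S and -0.36 in OPM2. PRKCQ (PKC theta), a kinase of antigen receptor signalling, went from 0.470 to 5.26 CPM (log2 fold change 3.36 ± 0.21, adjusted p = 5.02e-13). ITGAM (CD11b), a leukocyte integrin subunit, went from 0.982 to 9.297 CPM (log2 fold change 3.27 ± 0.34, adjusted p = 3.57e-08). LTB (lymphotoxin beta), a TNF family ligand, went from 0.687 to 11.5 CPM (log2 fold change 3.91 ± 0.37, adjusted p = 2.60e-08). PIGR, the transport receptor for polymeric antibody, went from 0.604 to 8.005 CPM, and IGHE, the constant region of IgE, from 1.95 to 16.4 CPM. IGHE resembles other heavy chain genes, between which reads may be split, so its level is uncertain.

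Several of the largest rises were of genes better known in other tissues. CD177, a surface protein of neutrophils, stood at 2.18, 1.84 and 2.08 CPM with EV and 24.9, 32.1 and 45.8 with the IRF4 guide (log2 fold change 4.08 ± 0.27, adjusted p = 6.06e-09). BSND, a chloride channel subunit of kidney and inner ear, went from 1.34 to 17.4 CPM, and TMEM61, close to it on chromosome 1, from 0.578 to 5.54 CPM. IGFBP5, a binding protein of insulin-like growth factors, went from 1.05 to 12.3 CPM, and the potassium channel gene KCNH5 from 0.783 to 6.48 CPM. GSN (gelsolin), which severs actin filaments, was the last of the 15. TMEM229B, ITGAM and GSN were also called higher in each of the other lines, and the remaining 12 were not. CD177, BSND, PIGR, IGFBP5 and TMEM61 were under 1 CPM in all 6 groups of those lines.

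The largest falls took several genes almost to 0. KBTBD11, a kelch repeat protein, stood at 24.6, 18.5 and 21.7 CPM with EV and 0, 0 and 0.0889 with the IRF4 guide. That is 1271 counts against 2, a 732-fold difference in level (95% counting interval 202 to 6049.8, counting error only). GJA1 (connexin 43), which forms gap junctions, stood at 28.9, 32.8 and 32.5 CPM with EV and 0.526, 0.326 and 0.267 with the IRF4 guide (log2 fold change -6.38 ± 0.25, adjusted p = 1.07e-16). These genes were near 0 in all 3 IRF4 guide libraries. PLS3 (plastin 3), an actin-bundling protein, stood at 110.2, 108 and 116 CPM with EV and 6.02, 5.22 and 7.56 with the IRF4 guide (log2 fold change -4.15 ± 0.14, adjusted p = 1.34e-19). DPYSL3, a cytoskeletal protein best known in neurons, stood at 29.997, 32.4 and 30.4 CPM with EV and 0.813, 0.856 and 0.623 with the IRF4 guide (log2 fold change -5.33 ± 0.20, adjusted p = 9.08e-19). None of the 4 showed any overlap between the groups, which the rule for the largest falls required.

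Of the other large falls, the phosphatase gene PTPN13 went from 8.77 to 0.175 CPM (log2 fold change -5.54 ± 0.33, adjusted p = 4.05e-13), and ACVR1C (ALK7), an activin receptor, went from 5.101 to 0.194 CPM (log2 fold change -4.62 ± 0.31, adjusted p = 2.46e-12). The stress kinase gene MAP3K20 (ZAK) went from 12.7 to 0.852 CPM (log2 fold change -3.92 ± 0.17, adjusted p = 1.38e-16), and FHOD3, an actin-nucleating formin, went from 35.4 to 2.66 CPM (log2 fold change -3.73 ± 0.18, adjusted p = 7.74e-16). HS6ST2, which sulfates heparan chains, went from 58.9 to 4.54 CPM and OSBPL1A, a lipid-binding protein, from 6.19 to 0.285 CPM. DMRT1, a transcription factor of the testis, went from 10.7 to 0.700 CPM. ERICH3, KRT6B, CDHR1 and CNKSR3 had log2 fold changes of -3.74, -3.55, -3.53 and -3.48.

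OSBPL1A alone of the 15 falls was called lower in all 3 other lines, and KBTBD11, DMRT1, KRT6B, CDHR1 and CNKSR3 were under 1 CPM in all 6 groups there. GJA1 was called higher in each of the other lines. It went from 107 to 178 CPM in MM1S and from 0.0248 to 4.100 CPM in OPM2, and the RPMI-8226 change differed from the mean of the others by -9.91 ± 0.64 (adjusted p = 5.55e-12), a size that rests on EV levels near 0 in H929 and OPM2. FHOD3, MAP3K20 and PTPN13 also differed, by -3.53 ± 0.22, -3.28 ± 0.20 and -5.63 ± 0.35 (adjusted p = 1.46e-12, 4.36e-13 and 2.01e-12).

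Genes of plasma cell identity did not move as a block: of 19 tested, 4 rose and 7 fell (median -0.13). Over all tested genes 19.2% rose and 14.7% fell. TNFRSF17 (BCMA), the receptor that carries survival signals to plasma cells and a target of myeloma therapy, stood at 74.8, 56.1 and 56.3 CPM with EV and 10.5, 10.5 and 7.205 with the IRF4 guide. The groups were far apart and the fall was 6.67-fold (log2 fold change -2.74 ± 0.16, adjusted p = 1.56e-11), with a difference from the other lines of -1.50 ± 0.17 (adjusted p = 7.71e-07). TXNDC5, a disulfide isomerase of the secretory pathway, went from 145 to 67.9 CPM (log2 fold change -1.10 ± 0.11, adjusted p = 3.19e-08). SDC1 (CD138), the surface proteoglycan by which plasma cells are sorted, fell as well (-0.42 ± 0.07; named after its values were seen). JCHAIN, which joins polymeric antibody, rose from 2278 ± 107 to 3721 ± 565 CPM (SD, n = 3 each) (log2 fold change 0.71 ± 0.09, adjusted p = 4.64e-07). The other rises, those of SLAMF7 and FCRL5 named after their values were seen, were EDEM1, the myeloma antibody target SLAMF7 (1.14 ± 0.31) and FCRL5 (1.25 ± 0.46). Without EV replicate 2 there were 2 rises.

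Genes of the earlier B cell stage rose more often, 12 of 21 against 2 that fell (median 0.86). The transcription factor SPIB stood at 1.48, 0.978 and 1.097 CPM with EV and 6.36, 5.79 and 5.96 with the IRF4 guide (log2 fold change 2.32 ± 0.24, adjusted p = 1.75e-08). BCL6, which holds germinal centre B cells back from becoming plasma cells, stood at 1.56, 1.41 and 1.21 CPM with EV and 4.69, 3.75 and 4.22 with the IRF4 guide (log2 fold change 1.55 ± 0.22, adjusted p = 2.24e-06). Neither showed overlap between the groups. CD40, a receptor for T cell help, went from 1.05 to 3.65 CPM (log2 fold change 1.81 ± 0.26, adjusted p = 5.14e-06), and the activation marker CD83 went from 5.55 to 15.3 CPM (log2 fold change 1.46 ± 0.20, adjusted p = 1.47e-06). PAX5, the B cell master regulator that PRDM1 represses, went from 0.772 to 2.39 CPM (log2 fold change 1.65 ± 0.36, adjusted p = 0.000685) and SPI1 (PU.1) from 47.3 to 74.3 CPM (both named after their values were seen). MS4A1 (CD20) was at 1.29 to 1.44 CPM and not called (adjusted p = 0.751). The genes that fell, named after their values were seen, were IRF8 (-0.54 ± 0.10), a relative of IRF4, and TCF3 (-0.31 ± 0.09). With limma on the deposited log2 values 7 of the list were called higher.

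Antigen presentation genes rose in both classes. Of 15 tested MHC class II genes 10 rose and 0 fell with edgeR (median 1.29). At an unadjusted p under 0.05 there was 1 fall, and limma on the deposited log2 values gave 5 rises and 1 fall. CD74, the invariant chain, stood at 66.4, 76.4 and 80.9 CPM with EV and 182, 183 and 222 with the IRF4 guide (log2 fold change 1.40 ± 0.24, adjusted p = 0.00024), and its call ended under DESeq2 and with limma on the log2 values. HLA-DMA, which loads peptides, went from 1.89 to 5.55 CPM (log2 fold change 1.59 ± 0.19, adjusted p = 1.78e-07). CIITA, the class II master regulator, went from 4.38 to 7.62 CPM (log2 fold change 0.81 ± 0.17, adjusted p = 0.000524), and RFX5, which binds class II promoters, went from 113 to 149 CPM (log2 fold change 0.39 ± 0.06, adjusted p = 1.39e-05). CIITA had log2 fold changes of -1.56 in H929, -1.10 in MM1S and 0.07 in OPM2, and its change in RPMI-8226 differed from theirs by 1.68 ± 0.22 (adjusted p = 6.69e-07).

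Of 16 class I presentation genes 9 rose and 0 fell with edgeR (median 0.21), 1 falling at an unadjusted p under 0.05 and 0 with DESeq2 or limma. The chaperone gene TAPBP (tapasin) had 0.46 ± 0.08 (adjusted p = 5.12e-05) and the trimming peptidase gene ERAP2 0.46 ± 0.07 (adjusted p = 1.97e-05). The HLA genes of the list are close copies of each other and their counts may be split between them.

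Interferon-stimulated genes rose in RPMI-8226, 23 of 38 tested against 3 that fell (median 0.76; 12 rose with limma on the deposited log2 values). Many of these genes are switched on through an interferon response element that IRF proteins bind. The core searched was GAAA, any 2 bases and GAAA again, on either strand, between 250 bases before and 50 after the start site, in promoters from RefSeq (GRCh38.p14). Of 31 list members with a promoter, 22 (71.0%) held it, against 3.03% of 12560 tested genes with a promoter and 3.65% of all 27305 promoters. It was in 3.48% of promoters of genes called higher, 5.23% of those called higher at least 4-fold and 2.94% of those called lower. Within the list it was in 11 of 18 promoters of genes that rose, in both of the 2 that fell and had a promoter, and in 9 of 11 of those not called. The element IRF4 shares with PU.1, GGAA, any 2 bases and GAAA on either strand, whose matches can share bases with that core, was in 2.6% of tested promoters, 2.84% of all RefSeq promoters, 2.83% of those called higher and 2.16% of those called lower. It was in 7 of the 31 promoters of the interferon list. Promoters of OAS3 (chr12:112938224-112938523, plus strand) and DDX60 (chr4:168318703-168319002, minus strand), which rose, and IFIT5 (chr10:89414318-89414617, plus strand), which fell, are shown 5′ to 3′ to set the same element beside opposite changes, with each match in capitals.
OAS3: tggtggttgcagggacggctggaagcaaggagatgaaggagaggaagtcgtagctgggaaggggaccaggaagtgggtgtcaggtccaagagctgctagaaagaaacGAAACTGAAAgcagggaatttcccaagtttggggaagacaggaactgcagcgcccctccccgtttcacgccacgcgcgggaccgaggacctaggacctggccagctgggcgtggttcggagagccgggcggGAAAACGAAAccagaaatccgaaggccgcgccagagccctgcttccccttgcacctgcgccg
DDX60: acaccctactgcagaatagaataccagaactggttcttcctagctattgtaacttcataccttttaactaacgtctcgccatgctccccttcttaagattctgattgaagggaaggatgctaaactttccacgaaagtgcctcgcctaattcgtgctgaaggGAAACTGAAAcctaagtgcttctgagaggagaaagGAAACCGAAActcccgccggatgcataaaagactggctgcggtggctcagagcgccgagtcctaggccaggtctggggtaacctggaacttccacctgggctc
IFIT5: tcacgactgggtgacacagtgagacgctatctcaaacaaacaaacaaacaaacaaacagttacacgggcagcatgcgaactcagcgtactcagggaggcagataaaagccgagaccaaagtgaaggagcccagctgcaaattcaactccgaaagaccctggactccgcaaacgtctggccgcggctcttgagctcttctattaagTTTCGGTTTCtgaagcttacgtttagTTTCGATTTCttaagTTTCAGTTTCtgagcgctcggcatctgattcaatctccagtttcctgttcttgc
A match is a description of letters and not a bound site.

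OAS3, a sensor of double-stranded RNA whose promoter held 2 matches, stood at 2.35, 2.11 and 4.06 CPM with EV and 13.8, 12.6 and 17.2 with the IRF4 guide (log2 fold change 2.47 ± 0.22, adjusted p = 1.99e-09). DDX60, a helicase of antiviral signalling, also with 2 matches, went from 0.128 to 1.04 CPM (log2 fold change 3.27 ± 0.58, adjusted p = 6.06e-05). IFIT5, an RNA-binding protein with 3 matches, went from 14.8 to 9.42 CPM (log2 fold change -0.66 ± 0.16, adjusted p = 0.00171). So OAS3 and DDX60 rose and IFIT5 fell with the same core in each promoter. OAS2 went from 10.4 to 21.2 CPM (log2 fold change 1.04 ± 0.13, adjusted p = 7.14e-07), and SAMD9, which blocks poxviruses, went from 39.9 to 73.4 CPM (log2 fold change 0.88 ± 0.11, adjusted p = 6.88e-07). GBP2, a guanylate-binding protein, fell from 9.34 ± 0.197 to 2.82 ± 0.809 CPM (SD, n = 3 each) (log2 fold change -1.72 ± 0.22, adjusted p = 4.04e-07). Its log2 fold change in the other lines was 3.59 in H929, 0.33 in MM1S and 1.90 in OPM2. HERC5, which attaches ISG15 to proteins and was named after its values were seen, fell too (-0.38 ± 0.14).

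The change was more negative in RPMI-8226 than the mean of the other lines for 15 of the 38 and more positive for 3. Over all tested genes 12.3% were more negative and 12.6% more positive. The list's median elsewhere was 1.83 in H929, 0.77 in MM1S and 1.89 in OPM2, so MM1S lay close to RPMI-8226 (0.76). The genes that carry the signal also rose: of 19 IRF, STAT and JAK genes 10 were higher and 2 lower (median 0.34). IRF1 stood at 54.97, 62.7 and 59.2 CPM with EV and 91.7, 87.8 and 100.4 with the IRF4 guide (log2 fold change 0.66 ± 0.08, adjusted p = 2.62e-07). STAT5A went from 5.52 to 14.5 CPM (log2 fold change 1.36 ± 0.19, adjusted p = 1.73e-06) and STAT3 went from 70.8 to 97.98 CPM (log2 fold change 0.47 ± 0.09, adjusted p = 0.000127). JAK1, the kinase of many cytokine receptors, went from 132 to 187 CPM (log2 fold change 0.51 ± 0.07, adjusted p = 3.55e-06). IRF8 and STAT4 (-0.90 ± 0.32) fell, both named after their values were seen.

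Of 20 cytokine and interferon receptors 8 were higher and 2 lower (median 0.15). IL21R, a receptor of B cell help, stood at 5.51, 6.34 and 7.35 CPM with EV and 21.9, 21.5 and 29.9 with the IRF4 guide (log2 fold change 1.96 ± 0.20, adjusted p = 2.31e-08), and IL4R went from 1.94 to 5.505 CPM (log2 fold change 1.599 ± 0.19, adjusted p = 2.39e-07). IFNGR1, a chain of the interferon gamma receptor, went from 34.6 to 57.4 CPM (log2 fold change 0.72 ± 0.09, adjusted p = 4.92e-07). IL6R, the receptor for a main growth factor of myeloma, stood at 128, 126 and 134 CPM with EV and 82.4, 75.3 and 80.2 with the IRF4 guide and fell (log2 fold change -0.71 ± 0.09, adjusted p = 3.65e-07), without overlap. CSF2RB, named after its values were seen, fell as well (-0.54 ± 0.09).

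NF-kB genes rose in 14 of 24 cases and 1 fell (median 0.85). RELB, the subunit of the noncanonical branch, stood at 7.94, 7.63 and 8.67 CPM with EV and 17.6, 22.6 and 19.9 with the IRF4 guide (log2 fold change 1.33 ± 0.13, adjusted p = 3.14e-09). CCL22, a chemokine, went from 0.230 to 3.47 CPM (log2 fold change 4.03 ± 0.42, adjusted p = 4.00e-08). TNFAIP2 went from 60.3 to 139 CPM (log2 fold change 1.21 ± 0.14, adjusted p = 4.98e-07), a call that limma on the log2 values did not make. ICAM1, an adhesion molecule and NF-kB target named after its values were seen, was the 1 that fell (-0.89 ± 0.15, adjusted p = 0.000147). A kappa-B site, GGGA, any base and TTTCC on either strand, was in 4 of 12 promoters of the members that rose, 2 of 7 of those not called and not in that of the 1 that fell. It was in 0.565% of all tested promoters, 0.97% of those called higher and 0.206% of those called lower, and in 0.579% of all RefSeq promoters. LTB, among the 15 largest rises, has 1 match, in capitals in its promoter 5′ to 3′ (chr6:31582376-31582675, minus strand, RefSeq GRCh38.p14).
LTB: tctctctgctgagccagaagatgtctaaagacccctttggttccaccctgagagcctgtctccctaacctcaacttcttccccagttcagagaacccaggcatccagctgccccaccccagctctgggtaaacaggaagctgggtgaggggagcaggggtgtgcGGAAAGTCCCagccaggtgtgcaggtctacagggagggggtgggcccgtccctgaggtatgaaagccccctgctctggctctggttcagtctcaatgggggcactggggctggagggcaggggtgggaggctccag
LTB stood at 0.988, 0.743 and 0.329 CPM with EV and 7.51, 8.97 and 18.1 with the IRF4 guide, the absence of overlap being required of the largest rises.

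Genes of ribosome building and other MYC targets fell almost without exception, 30 of 31 tested, with 0 higher in edgeR, DESeq2 or limma and 0 at an unadjusted p under 0.05 (median -0.54). NOP56, a core protein of box C/D snoRNPs, stood at 339, 379 and 304 CPM with EV and 183, 205 and 172 with the IRF4 guide (log2 fold change -0.87 ± 0.10, adjusted p = 1.97e-07). NPM1 (nucleophosmin) stood at 657, 694 and 592 CPM with EV and 411, 420.3 and 383 with the IRF4 guide (log2 fold change -0.68 ± 0.09, adjusted p = 1.05e-06) and NCL (nucleolin) at 1678, 1906 and 1529 CPM with EV and 1059, 1187 and 1002 with the IRF4 guide (log2 fold change -0.65 ± 0.10, adjusted p = 1.30e-05). The groups did not overlap for any of these. NOLC1, a nucleolar chaperone, went from 661 to 409.96 CPM (log2 fold change -0.69 ± 0.09, adjusted p = 6.11e-07). PPAN, the member not called, had -0.51 ± 0.21 (adjusted p = 0.0565). The change was more positive in RPMI-8226 than the mean of the other lines for 8 of the 31, against 12.6% of all tested genes. It was more negative for 0. The list's median there was -1.15 in H929, -0.30 in MM1S and -0.78 in OPM2, so the median fall in MM1S was smaller than in RPMI-8226.

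The E-box CACGTG, which MYC and its partner MAX bind, reads the same on both strands. It was in 10 of the 25 promoters of the list (40%), and in 10 of the 24 of the members that fell (41.7%). The share was 9.68% of all tested promoters, 11.9% of those called lower, 8.69% of those called higher and 7.43% of all RefSeq promoters. The list holds MYC targets by choice, and 1 member with a promoter was not called, so its share cannot be tied to the falls. RRP9, a U3 snoRNP protein, has it at its start site, in capitals 5′ to 3′ (chr3:51941855-51942154, minus strand, RefSeq GRCh38.p14).
RRP9: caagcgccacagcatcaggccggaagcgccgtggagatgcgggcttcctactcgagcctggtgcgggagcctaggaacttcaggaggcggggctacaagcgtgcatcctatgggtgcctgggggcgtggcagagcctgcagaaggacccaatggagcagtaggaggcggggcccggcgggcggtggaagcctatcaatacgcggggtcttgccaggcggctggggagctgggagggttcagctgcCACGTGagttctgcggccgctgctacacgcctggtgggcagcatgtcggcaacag
RRP9 went from 65.6 ± 5.88 to 40.9 ± 10.3 CPM (SD, n = 3 each) (log2 fold change -0.68 ± 0.15, adjusted p = 0.000762).

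Within the MYC network 5 of 12 genes rose and 1, MYC, fell (median 0.07; 3 rose with limma on the log2 values). MXD4, an antagonist of MYC, stood at 21.9, 22.5 and 27.97 CPM with EV and 53.1, 44.8 and 47.2 with the IRF4 guide (log2 fold change 1.02 ± 0.11, adjusted p = 2.24e-08), and MXD1, of the same family, went from 17.8 to 26.8 CPM (log2 fold change 0.60 ± 0.11, adjusted p = 0.000115). MYCN, a relative of MYC, went from 15.7 to 25.9 CPM (log2 fold change 0.72 ± 0.16, adjusted p = 0.000988). Its log2 fold changes elsewhere were -3.57 in H929, -0.31 in MM1S and -0.13 in OPM2. MXD3 (0.60 ± 0.14) and MLXIP (0.28 ± 0.10) were the other rises, named after their values were seen.

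Ribosomal protein genes changed little: 6 of 39 fell, against 14.7% of all tested genes, and 0 rose with edgeR (median -0.12; 0 higher at an unadjusted p under 0.05 or with DESeq2, 1 with limma). With the replicate block, a term for the replicate number, 16 fell, without IRF4 guide replicate 3 the count was 0 and without EV replicate 1 it was 1. RPL8 had -0.24 ± 0.07 (adjusted p = 0.00749) and RPS15 -0.27 ± 0.10 (adjusted p = 0.0284). Even so, 23 of the 39 changed more negatively than the mean of the other lines, against 12.3% of all tested genes. The medians there were -0.07 in H929, 0.70 in MM1S and 0.06 in OPM2, so MM1S raised that mean and H929 lay close to RPMI-8226. Host genes of snoRNAs and other small RNAs fell in 7 of 17 cases (median -0.21; 4 without EV replicate 2), and 0 rose with edgeR, DESeq2, limma or at an unadjusted p under 0.05. SNHG17 stood at 88.6, 96.5 and 90.5 CPM with EV and 46.5, 52.4 and 39.5 with the IRF4 guide (log2 fold change -0.99 ± 0.13, adjusted p = 9.24e-07), and SNHG7 and TAF1D had -0.46 ± 0.12 and -0.38 ± 0.09.

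The cell cycle set RPMI-8226 apart from the other lines. Of 30 G1/S and DNA replication genes 2 rose and 6 fell (median -0.10), where 19.2% of all tested genes rose and 14.7% fell. All 30 changed more positively than the mean of H929, MM1S and OPM2, against 12.6% of all tested genes, and their medians there were -1.50 in H929, -1.08 in MM1S and -0.50 in OPM2. CCNE2, a cyclin of S phase entry, stood at 14.7, 14.2 and 11.96 CPM with EV and 28.7, 28.7 and 32.8 with the IRF4 guide (log2 fold change 1.12 ± 0.18, adjusted p = 2.21e-05). Its log2 fold changes elsewhere were -2.51 in H929, -1.82 in MM1S and 0.02 in OPM2, a difference of 2.56 ± 0.22 (adjusted p = 1.31e-09). CCNE1, of the same class, went from 9.53 to 14.3 CPM (log2 fold change 0.57 ± 0.13, adjusted p = 0.00151), with a difference of 1.62 ± 0.15 (adjusted p = 3.17e-09). The phosphatase gene CDC25A went from 103 to 78.99 CPM (log2 fold change -0.39 ± 0.10, adjusted p = 0.00255), and GINS1, part of the replicative helicase, went from 97.2 to 62.2 CPM (log2 fold change -0.65 ± 0.11, adjusted p = 2.17e-05). There were 11 falls with the replicate block, 10 under DESeq2, RLE size factors, the stricter filter or without IRF4 guide replicate 2, and 3 without IRF4 guide replicate 1 or EV replicate 2.

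Of 30 mitotic genes 5 rose and 2 fell (median 0.08), where 19.2% of all tested genes rose and 14.7% fell. The change was more positive than the mean of the other lines for 28, against 12.6% of all tested genes. The list's medians there were -0.90 in H929, -0.42 in MM1S and -0.26 in OPM2. CENPF, a kinetochore protein, stood at 252, 261 and 296 CPM with EV and 342, 353 and 381 with the IRF4 guide (log2 fold change 0.41 ± 0.09, adjusted p = 0.000379), and TOP2A (topoisomerase II) at 634, 644 and 669 CPM with EV and 810.01, 735 and 814 with the IRF4 guide (log2 fold change 0.28 ± 0.09, adjusted p = 0.0167). HMMR, a spindle protein, went from 107 to 130.2 CPM (log2 fold change 0.29 ± 0.09, adjusted p = 0.00976). MAD2L1, a checkpoint protein, went from 154 to 119 CPM (log2 fold change -0.38 ± 0.12, adjusted p = 0.015), and AURKB, named after its values were seen, was the other fall (-0.34 ± 0.11). There were 9 rises with the replicate block, 3 without IRF4 guide replicate 1 and 2 without IRF4 guide replicate 3, EV replicate 1 or EV replicate 2.

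The cyclins and inhibitors that gate the cycle were split, 4 higher and 5 lower of 16 (median 0.05; 2 higher without IRF4 guide replicate 1, EV replicate 1 or EV replicate 2). CCND2, the D cyclin of the MAF subgroup, stood at 436, 409 and 399.7 CPM with EV and 216, 205 and 233 with the IRF4 guide (log2 fold change -0.93 ± 0.09, adjusted p = 2.41e-09). CCND1 stood at 68.96, 71.6 and 57.8 CPM with EV and 38.2, 38.9 and 37.4 with the IRF4 guide (log2 fold change -0.80 ± 0.09, adjusted p = 1.28e-07; not called with limma on the log2 values). Both D cyclins fell without overlap. The inhibitor gene CDKN1C (p57) went from 19.1 to 42.9 CPM (log2 fold change 1.17 ± 0.19, adjusted p = 3.82e-05), and RBL2, a relative of the retinoblastoma protein, went from 119 to 154 CPM (log2 fold change 0.38 ± 0.08, adjusted p = 0.000468). CDKN1A (p21), named after its values were seen, fell (-0.71 ± 0.24, adjusted p = 0.0329).

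Of 21 p53 targets, CDKN1A among them, 12 rose and 2 fell (median 0.36). The rises numbered 5 without IRF4 guide replicate 1, 6 without EV replicate 2 and 6 with the RPMI-8226 libraries alone, and the falls 4 with the replicate block and 0 without IRF4 guide replicate 3 or EV replicate 1. SESN1, a stress sensor that restrains mTORC1, stood at 41.7, 30.7 and 32.6 CPM with EV and 81.001, 53.97 and 63.5 with the IRF4 guide (log2 fold change 0.91 ± 0.11, adjusted p = 3.82e-07). RRM2B, a ribonucleotide reductase subunit, went from 84.3 to 124 CPM (log2 fold change 0.55 ± 0.08, adjusted p = 4.24e-06), and TP53INP1 went from 41.004 to 84.2 CPM (log2 fold change 1.04 ± 0.17, adjusted p = 0.000125).

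**Figure D3:**
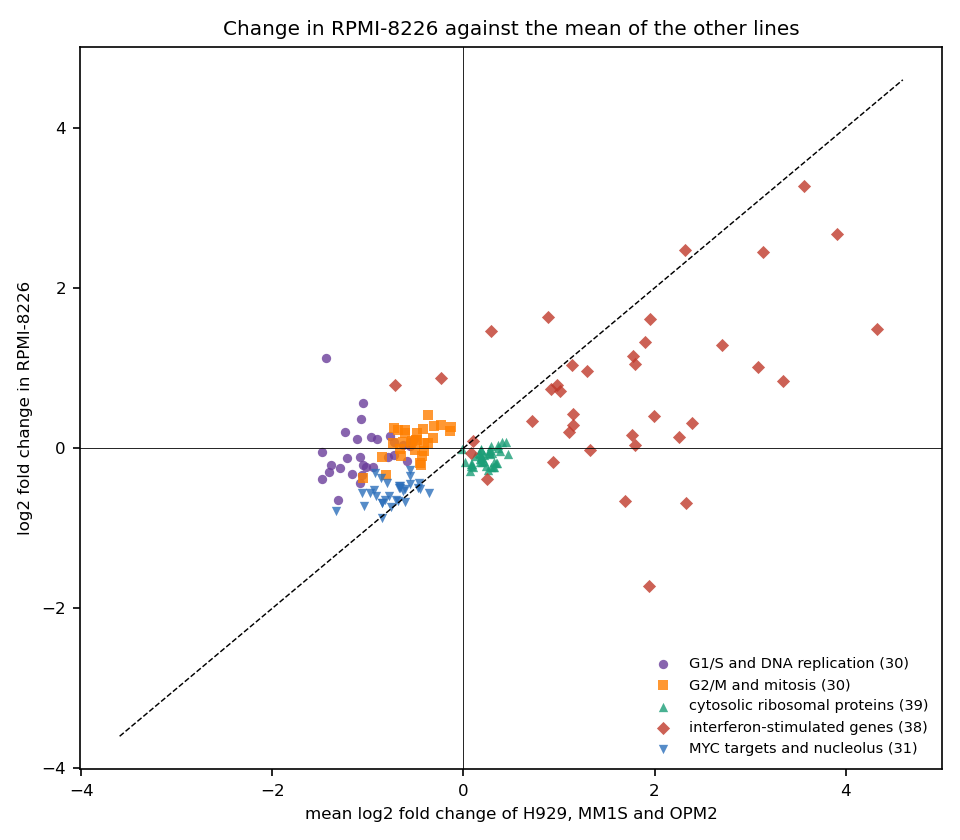
Log2 fold change (IRF4 guide over EV) of the tested members of 5 lists in RPMI-8226 (y axis) against the mean of H929, MM1S and OPM2 (x axis), with the line of equal change dashed. All 30 G1/S genes lie above the line, while 23 of 39 ribosomal protein genes and 15 of 38 interferon-stimulated genes were called more negative in RPMI-8226 than that mean. For the ribosomal protein genes MM1S, with a median of 0.70, raised the mean.

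Of 28 sterol and fatty acid synthesis genes 23 fell (median -0.68; 21 to 26 over the alternatives), and 0 rose with edgeR, DESeq2, limma or at an unadjusted p under 0.05. FASN (fatty acid synthase) stood at 1483, 1463 and 1615 CPM with EV and 808, 796 and 759 with the IRF4 guide (log2 fold change -0.95 ± 0.11, adjusted p = 1.59e-07). CYP51A1, which demethylates lanosterol, went from 156 to 91.2 CPM (log2 fold change -0.77 ± 0.09, adjusted p = 1.54e-07). MVD, an enzyme of the mevalonate pathway, went from 39.7 to 22.5 CPM (log2 fold change -0.82 ± 0.10, adjusted p = 1.98e-07), and the desaturase gene FADS1 went from 328 to 175 CPM (log2 fold change -0.91 ± 0.10, adjusted p = 2.31e-08). MVD had log2 fold changes of 0.44 in H929, 0.01 in MM1S and -0.29 in OPM2, a difference of -0.87 ± 0.12 (adjusted p = 1.46e-06). SREBF1 and SREBF2, the transcription factors of the pathway, had -0.17 ± 0.15 and -0.19 ± 0.09 and were not called.

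Of 26 genes of the ATF4 and amino acid response 12 fell and 1, SLC1A4 (0.26 ± 0.09; named after its values were seen), rose (median -0.41; 3 rose with the replicate block or no filter on low counts). TRIB3, a feedback pseudokinase, stood at 85.2, 82.7 and 77.4 CPM with EV and 37.5, 48.9 and 33.9 with the IRF4 guide (log2 fold change -1.03 ± 0.14, adjusted p = 3.33e-06), and SLC1A5, a glutamine transporter, at 429, 398 and 445 CPM with EV and 237, 310.2 and 233 with the IRF4 guide (log2 fold change -0.70 ± 0.11, adjusted p = 1.85e-05). The proline synthesis genes ALDH18A1 and PYCR1 had log2 fold changes of -0.54 ± 0.08 and -0.60 ± 0.10 (adjusted p = 4.26e-06 and 5.71e-05). Of 23 glycolysis genes 9 fell and 0 rose with edgeR (median -0.26; 1 higher at an unadjusted p under 0.05 and 0 with DESeq2 or limma). LDHA, which makes lactate, went from 1409 to 848 CPM (log2 fold change -0.73 ± 0.13, adjusted p = 0.000144), and PGAM1 went from 61.6 to 38.03 CPM (log2 fold change -0.70 ± 0.10, adjusted p = 1.55e-06). The falls numbered 5 without IRF4 guide replicate 1 or EV replicate 2 or with limma on the log2 values, and 15 in the blocked fit of the RPMI-8226 libraries alone.

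Respiratory chain genes were near balance, 2 higher and 4 lower of 24 (median -0.10), against 19.2% and 14.7% of all tested genes. SDHB, an iron-sulfur subunit of complex II, went from 174 to 132 CPM (log2 fold change -0.40 ± 0.08, adjusted p = 0.000157). There were 10 falls with the replicate block, 8 with the RPMI-8226 libraries alone, 7 under DESeq2 or RLE size factors and 2 without EV replicate 1, and 0 rises without IRF4 guide replicate 1 or 3 or EV replicate 2.

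Of 26 genes of the unfolded protein response 3 rose and 7 fell (median -0.14), against 19.2% and 14.7% of all tested genes. PDIA6, a disulfide isomerase, went from 666 to 485 CPM (log2 fold change -0.46 ± 0.07, adjusted p = 3.92e-06), and EDEM1, which marks glycoproteins for degradation, went from 300.3 to 384 CPM (log2 fold change 0.36 ± 0.09, adjusted p = 0.0038). XBP1, the factor behind the secretory state, had -0.13 ± 0.08 and was not called (adjusted p = 0.266). Without IRF4 guide replicate 2 the balance turned, to 5 rises and 4 falls. There were 12 falls with the replicate block, 4 without IRF4 guide replicate 3 and 3 without EV replicate 1 or with limma, and 1 rise without IRF4 guide replicate 1 or 3 or EV replicate 1 or 2. Cytosolic and mitochondrial chaperones fell in 9 of 18 cases with 1 rise, DNAJB4 (0.66 ± 0.20; named after its values were seen) (median -0.43; 14 fell with the replicate block or with no filter on low counts). HSPD1 (HSP60) went from 1449.9 to 953 CPM (log2 fold change -0.61 ± 0.08, adjusted p = 1.04e-06), and HSP90AB1 went from 3397 to 2509 CPM (log2 fold change -0.44 ± 0.07, adjusted p = 1.70e-05).

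Proteasome subunit genes fell in 21 of 32 cases (median -0.24), and 0 rose with edgeR, DESeq2, limma or at an unadjusted p under 0.05. PSMD12, of the regulatory particle, stood at 185, 193 and 166 CPM with EV and 130.4, 141 and 131 with the IRF4 guide (log2 fold change -0.43 ± 0.08, adjusted p = 5.69e-05), and PSMB2, of the core, at 368, 382 and 338 CPM with EV and 285, 295 and 254 with the IRF4 guide (log2 fold change -0.38 ± 0.09, adjusted p = 0.00117). The changes were small but the groups did not overlap. The count was 13 without IRF4 guide replicate 3 or EV replicate 1 and 10 without EV replicate 2.

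Lysosome and autophagy genes rose instead, 19 of 28 with 1 fall (median 0.40; 15 to 20 rises over the alternatives). CTSS (cathepsin S), a protease of antigen processing, stood at 110.4, 112 and 104 CPM with EV and 200.2, 173 and 233 with the IRF4 guide (log2 fold change 0.89 ± 0.09, adjusted p = 7.51e-09), and SQSTM1 (p62), an autophagy receptor, at 273, 269.7 and 284 CPM with EV and 385, 471 and 406 with the IRF4 guide (log2 fold change 0.61 ± 0.07, adjusted p = 2.39e-07). PSAP (prosaposin), which activates lysosomal lipid hydrolases, went from 644 to 998 CPM (log2 fold change 0.63 ± 0.08, adjusted p = 4.09e-07). CTSB, named after its values were seen, fell (-0.38 ± 0.11).

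**Figure D4:**
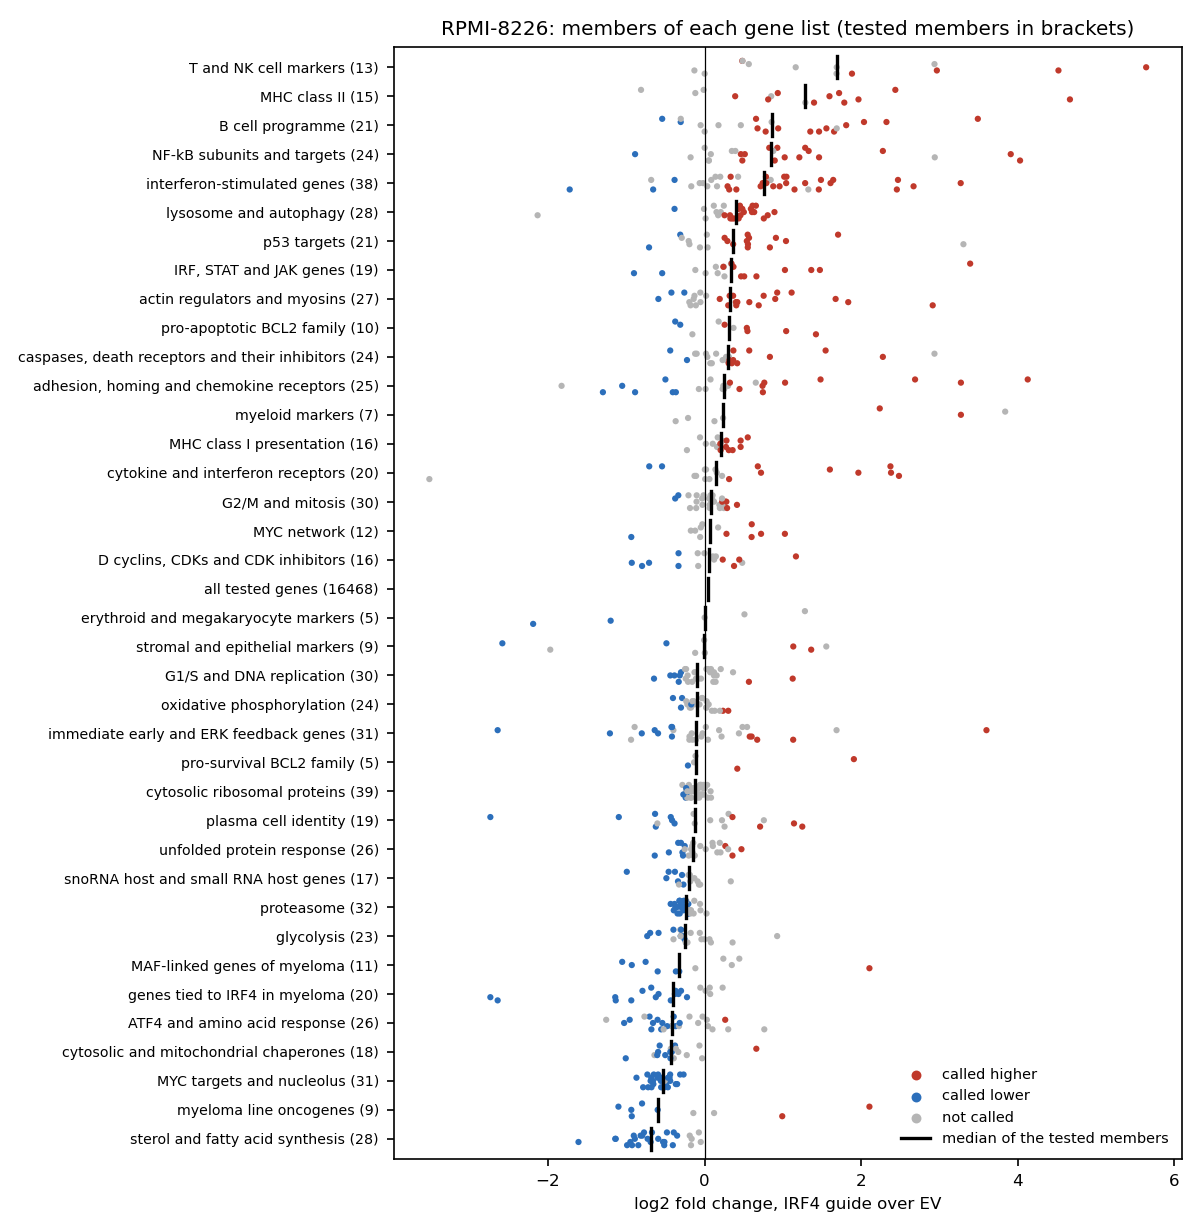
Each point is a tested member of a gene list at its log2 fold change in RPMI-8226 (x axis, IRF4 guide over EV), coloured by its call, with the list's median as a black bar and lists ordered by median on the y axis. Sterol and fatty acid synthesis, MYC targets, chaperones and the amino acid response have medians left of 0, and MHC class II, B cell, NF-kB and interferon-stimulated genes right of it.

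MAF, the oncogene of this line, stood at 1334, 1330.5 and 1369.7 CPM with EV and 918, 826 and 917 with the IRF4 guide and fell (log2 fold change -0.60 ± 0.10, adjusted p = 3.37e-05), without overlap. Of 11 MAF-linked genes 6 fell and 1 rose (median -0.32). ITGB7, an adhesion integrin that MAF drives, stood at 3937, 3455 and 3752 CPM with EV and 1983, 1836 and 1551 with the IRF4 guide, a 2.08-fold fall (log2 fold change -1.05 ± 0.09, adjusted p = 6.08e-10), and its change differed from the other lines by -0.92 ± 0.11 (adjusted p = 1.30e-07). RND3, an atypical small GTPase, had -0.75 ± 0.17 (adjusted p = 0.00106; not called with limma), the kinase NUAK1 -0.32 ± 0.11 (adjusted p = 0.0191) and the integrin ITGAE -0.37 ± 0.13 (adjusted p = 0.0308). NUAK1's call ended without IRF4 guide replicate 2 or EV replicate 1, and ITGAE's without any 1 library other than IRF4 guide replicate 2. DEPTOR, an mTOR inhibitor, had -0.12 ± 0.08 (adjusted p = 0.257), and NTRK2, near 0 throughout, 0.44 ± 1.12 (adjusted p = 0.814). The chemokine receptors CCR1 and CX3CR1 had 0.24 ± 0.10 and 0.35 ± 0.20 and were not called (adjusted p = 0.0619 and 0.211). With the replicate block both were called higher (adjusted p = 0.00253 and 3.99e-05), so that 3 of the list rose.

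Across 9 oncogenes of myeloma lines 2 rose and 5 fell (median -0.60). The falls were MAF, CCND1, CCND2, MYC and IRF4, and among the rises was FGFR3 (0.99 ± 0.25, named after its values were seen). IRF4 is the gene the guide targets, so its fall comes with the design. Of 20 genes tied to IRF4 in myeloma, 15 fell (median -0.41), and 0 rose with edgeR, DESeq2 or limma and 1 at an unadjusted p under 0.05. SUB1, a transcription coactivator, stood at 456, 437 and 386 CPM with EV and 267, 238 and 233 with the IRF4 guide (log2 fold change -0.79 ± 0.10, adjusted p = 8.08e-07). KLF2, which keeps lymphocytes quiescent, stood at 11.9, 10.2 and 10.7 CPM with EV and 1.39, 2.36 and 1.42 with the IRF4 guide (log2 fold change -2.64 ± 0.40, adjusted p = 9.28e-05). Among 31 immediate early and ERK feedback genes 5 rose and 8 fell (median -0.11), where 19.2% of all tested genes rose and 14.7% fell. JUNB, an AP-1 subunit, went from 57.5 to 91.3 CPM (log2 fold change 0.67 ± 0.09, adjusted p = 1.73e-06), and DUSP2, a phosphatase of ERK, went from 37.8 to 24.3 CPM (log2 fold change -0.64 ± 0.13, adjusted p = 0.000218). SPRY2, an inhibitor of the same pathway, stood at 0.247, 0.117 and 0 CPM with EV and 1.05, 1.59 and 3.07 with the IRF4 guide (log2 fold change 3.60 ± 0.48, adjusted p = 1.05e-06).

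Among 25 tested genes of adhesion and homing 10 rose and 6 fell (median 0.25). ITGA4, the partner of ITGB7 in gut homing, fell with it (-0.41 ± 0.11; named after its values were seen). ITGB2 (CD18), the leukocyte integrin chain that pairs with ITGAM, stood at 2.67, 2.78 and 1.21 CPM with EV and 14.5, 10.4 and 21.4 with the IRF4 guide (log2 fold change 2.69 ± 0.27, adjusted p = 2.78e-08). ICAM3, one of the ligands of such integrins, went from 100.4 to 167 CPM (log2 fold change 0.74 ± 0.08, adjusted p = 2.28e-08). CD44, the hyaluronan receptor, stood at 7.78, 8.41 and 7.68 CPM with EV and 2.87, 3.51 and 3.34 with the IRF4 guide (log2 fold change -1.30 ± 0.14, adjusted p = 2.31e-08), without overlap. Its log2 fold changes elsewhere were 1.33 in H929, -0.23 in MM1S and 0.86 in OPM2, a difference of -1.95 ± 0.15 (adjusted p = 2.58e-11). The change was more negative than the mean of the other lines for 8 genes of the list, against 12.3% of all tested genes. It was more positive for 3. The list's median was higher than in RPMI-8226 in H929 and OPM2 but not in MM1S (0.97 in H929, 0.03 in MM1S and 0.62 in OPM2).

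Of 27 actin regulators and myosins 16 rose and 3 fell (median 0.32; 5 fell with the replicate block). GSN, among the 15 largest rises, stood at 5.06, 3.76 and 4.61 CPM with EV and 36.96, 18.8 and 44.9 with the IRF4 guide (log2 fold change 2.91 ± 0.27, adjusted p = 1.97e-07). MYO1F, a myosin of blood cells, stood at 16.7, 15.6 and 19.1 CPM with EV and 63.1, 49.4 and 68.8 with the IRF4 guide (log2 fold change 1.83 ± 0.14, adjusted p = 2.43e-11) and MYO7A at 8.11, 8.14 and 9.104 CPM with EV and 32.2, 22.1 and 25.9 with the IRF4 guide (log2 fold change 1.67 ± 0.15, adjusted p = 2.39e-09). MYO1F and MYO7A rose without overlap, which the choice of GSN among the largest rises required. WIPF1, which binds the actin regulator WASP, went from 167 to 312 CPM (log2 fold change 0.90 ± 0.09, adjusted p = 2.82e-09). The change was more negative than the mean of the other lines for 15 of the 27, against 12.3% of all tested genes. It was more positive for 1. The list's median was higher than in RPMI-8226 in H929 and OPM2 but lower in MM1S (0.90 in H929, 0.19 in MM1S and 0.57 in OPM2). The falls, named after their values were seen, were MYO5A (-0.26 ± 0.08), RHOB (-0.59 ± 0.09) and ACTG1 (-0.42 ± 0.09).

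The difference between RPMI-8226 and the mean of the other lines was called for 4110 genes (25%), 2077 more positive (12.6%) and 2033 more negative (12.3%). Among genes called in RPMI-8226, the 8 with the smallest p in each direction included the kinase gene HUNK, at 0.988, 0.508 and 0.768 CPM with EV and 5.36, 4.16 and 3.29 with the IRF4 guide. Its log2 fold change was 2.50 ± 0.28 here and -3.27 in H929, -1.53 in MM1S and -1.05 in OPM2. RRBP1, a ribosome-binding protein of the endoplasmic reticulum, had 0.72 ± 0.08 against -0.40 in H929, -0.53 in MM1S and -0.65 in OPM2, and TSPAN7 1.95 ± 0.16 against -0.69 in H929, -0.54 in MM1S and 0.04 in OPM2. These genes rose in RPMI-8226, as did DCK, the kinase that activates nucleoside drugs (0.61 ± 0.08), the DNA repair helicase gene BRIP1 (0.51 ± 0.11) and the kinase gene YES1 (0.91 ± 0.10). WDR76 passed only narrowly (0.22 ± 0.09, adjusted p = 0.0496), and its difference from the other lines was 1.33 ± 0.10 (adjusted p = 4.77e-11). Its own call held without IRF4 guide replicate 1 and ended without any other 1 library.

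On the negative side ARHGEF3, an exchange factor of small GTPases, stood at 269.7, 273 and 264 CPM with EV and 176, 168 and 154 with the IRF4 guide (log2 fold change -0.70 ± 0.08, adjusted p = 1.45e-07) and had log2 fold changes of 2.47 in H929, 0.66 in MM1S and 1.69 in OPM2. P2RX7, an ATP-gated channel, stood at 87.1, 68.7 and 79.4 CPM with EV and 43.1, 32.4 and 42.6 with the IRF4 guide (log2 fold change -0.995 ± 0.11, adjusted p = 2.78e-08) against 1.70 in H929, 0.97 in MM1S and 1.54 in OPM2. Both fell in RPMI-8226 without overlap. RALGPS2 (-2.73 ± 0.19), FARP1 (-3.14 ± 0.15), PAK1 (-1.85 ± 0.15) and MYLIP (-1.81 ± 0.11) also fell here, with differences from the other lines of -3.85 ± 0.20, -3.25 ± 0.17, -2.44 ± 0.16 and -1.95 ± 0.13. RALGPS2 and FARP1 are exchange factors too, PAK1 is a kinase that such GTPases activate and MYLIP a ligase that turns over lipoprotein receptors.

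Some genes appeared or vanished at this depth. With the IRF4 guide, 305 genes had over 3 counts in all and 0 in the EV libraries, 55 of them called higher, and 95 showed the reverse, 21 of them called lower. HS3ST3B1, a heparan sulfate sulfotransferase, had 54, 41 and 17 counts with EV and 0 in all 3 IRF4 guide libraries. Taking 3 counts for the whole group as the floor, it was at least 42.99-fold lower (adjusted p = 2.80e-08). ZNF804A went from 10, 23 and 6 counts to 0, at least 14.97-fold lower, and MGC12916 from 41, 43 and 13 counts to 0, at least 37.2-fold. In the other direction LINC01108 had 11, 14 and 23 counts with the IRF4 guide and 0 with EV, at least 13.9-fold higher (adjusted p = 4.86e-05). ARHGAP29 (1, 50 and 1 counts) and CDH11 (1, 27 and 0) owed nearly all their counts to IRF4 guide replicate 2. Such bounds cover counting error only.

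Markers of cells that a myeloma culture should lack were checked by the same lists. Of 13 T and NK cell genes 5 rose, CD5, CD3E, CD3G, CD4 and CD8B (median 1.68; 2 with the RPMI-8226 libraries alone). None fell with edgeR, DESeq2 or limma, nor at an unadjusted p under 0.05 (0 each). Their summed level was 243 to 289 CPM with EV and 338 to 398 with the IRF4 guide, most of it CD8B, at 282, 252 and 239 CPM with EV and 385, 328 and 367 with the IRF4 guide, a call limma did not make. CD5 had 1 count with EV and 36 with the IRF4 guide and CD3E 3 and 30, while CD3D had 0 and 1, TRAC 0 and 3 and GNLY 0 in all 6 libraries. Their part in other results was not tested.

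Of 7 myeloid genes 2 rose, ITGAM and S100A9 (0.525 to 2.36 CPM), and 0 fell with edgeR (median 0.24; 1 lower at an unadjusted p under 0.05 and 0 with DESeq2 or limma), and their sum was 45.1 to 52.9 CPM with EV and 48.7 to 52.5 with the IRF4 guide. Of 9 stromal and epithelial genes 2 rose, CDH1 and PECAM1, and 2 fell, EPCAM and VWF (median -0.01), with a sum of 236 to 245 CPM with EV and 192 to 206 with the IRF4 guide. EPCAM, an epithelial adhesion protein, stood at 119, 124 and 106 CPM with EV and 80.9, 93.1 and 75.3 with the IRF4 guide. Of 5 erythroid genes 2 fell, HBA1 and HBA2, near-identical copies whose reads may be split, and 0 rose with edgeR, DESeq2 or limma (median 0.00; 2 higher at an unadjusted p under 0.05 and 2 without EV replicate 3), with a sum of 8.56 to 11.96 CPM with EV and 8.37 to 9.78 with the IRF4 guide. The plasma cell genes JCHAIN, SDC1 and XBP1 were at 2278, 417 and 420.2 CPM with EV.

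Changes were also summarised by chromosome, over genes above a low level. Chromosome 7 had the highest median log2 fold change, 0.15 over 478 genes, with 149 higher and 55 lower. It was 0.10, 0.11 and 0.17 in the 3 replicate pairs, and -0.02 in H929, 0.02 in MM1S and -0.10 in OPM2. The lowest medians were those of chromosome 2 (-0.08, 96 higher and 174 lower of 669) and chromosome 20 (-0.08, 49 higher and 77 lower of 277). Chromosome 2 was also negative elsewhere, at -0.06 in H929, -0.04 in MM1S and -0.06 in OPM2. Chromosome 20 was at -0.01 in H929, 0.11 in MM1S and -0.03 in OPM2. In windows of 40 genes the lowest median, -0.27, was on chromosome 10, with 1 gene higher and 23 lower. That window was negative in the other lines too, at -0.15 in H929, -0.16 in MM1S and -0.18 in OPM2. The first pair of windows had medians of -0.24 and -0.26 on chromosome 20, where 19 and 18 genes were lower and 2 and 4 higher. Elsewhere that pair had -0.13 and 0.02 in H929, 0.12 and -0.11 in MM1S and -0.07 and -0.17 in OPM2. On chromosome 2 the first pair had -0.26 and -0.23, where 19 and 20 genes were lower and 7 and 2 higher. Elsewhere it had -0.15 and 0.09 in H929, -0.19 and 0.09 in MM1S and -0.12 and -0.05 in OPM2. The cause of these shifts was not tested.

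**Figure D5:**
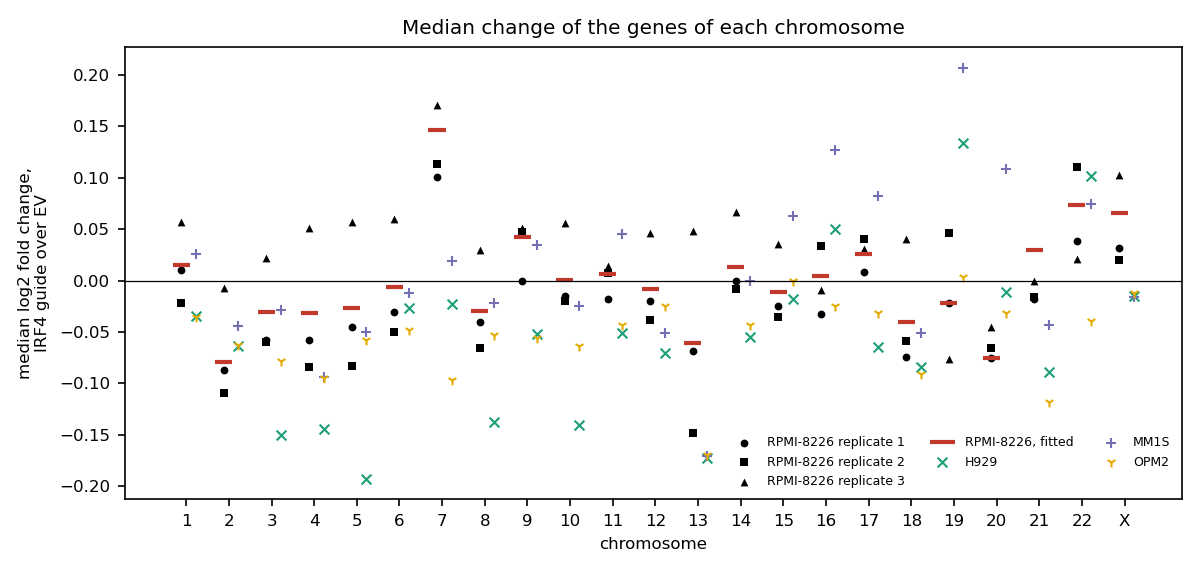
Median log2 fold change (y axis, IRF4 guide over EV) of the genes of each chromosome (x axis) in RPMI-8226, for the 3 replicate pairs and the fitted values, beside the fitted medians of the other lines. Chromosome 7 is above 0 in all 3 RPMI-8226 pairs, at 0.10, 0.11 and 0.17, and at 0.02 or less in the other lines.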

How the data were processed

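Whole-gene RNA-seq raw counts per Entrez gene for 23 libraries (28395 genes) were deposited by the authors, along with log2 RPKM values for 16220 genes. Subread, featureCounts and limma on GRCh38 (hg38) are named in the submitters' processing notes; the sources used here state no version, setting or strand. Per the labels, RNA was purified with RNeasy Plus Mini columns and made into libraries with a TruSeq RNA kit.

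The deposited counts went into edgeR 4.0.16 (R 4.3.3): filterByExpr by group (16468 genes kept), TMM scaling, and 1 robust quasi-likelihood model of all 23 libraries with a mean per group (15 residual degrees of freedom), so that the lines shared an estimate of the spread. Contrasts were IRF4 guide minus EV in RPMI-8226, and that contrast minus the mean of the same in H929, MM1S and OPM2. The Benjamini-Hochberg threshold was 0.05. The SE of a log2 fold change was its size divided by the root of the F statistic. CPM are TMM-normalised. Library totals were 20500671, 24063200 and 21869554 counts (IRF4 guide) and 24889522, 26133179 and 8974460 (EV). In simulated counts of 16154 genes, 68 were changed 1.5-fold, 66 were changed 2-fold and 66 were changed 4-fold. Tests recovered 77.9% of the 1.5-fold and 100% of the 2-fold changes, with 10 false among 195 calls. The real data had 5587 calls, so these rates of recovery and false calls need not hold there. Recovery of genes near 0 counts was not scored separately.

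Same-numbered replicates deviated together (correlations of 0.38, 0.33 and 0.29 across genes), so the numbers may pair the samples. This comes from the data, as the labels do not state it. The main test left it out. With the block 6837 genes were called against 5587 without it, so some genes not called here are called with it. The possible pairing entered as a replicate block only in alternatives. These also comprised RLE factors, other filters, DESeq2 1.42.0, limma 3.58.1 on the deposited log2 values, the RPMI-8226 libraries alone, and leaving out each library.

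Members and the 37 gene lists were chosen with earlier results of these data known. The rule for named genes took IRF4, BMF, BCL2L11, MYC, PRDM1 and the BCL2 family and MAF-linked lists; the 15 largest rises and falls called, without overlap and of at least 5 CPM; up to 4 called members a list by adjusted p; 8 genes each way by p of the difference between lines; and 10 genes each way with 0 counts in a group. Others were named after their values were seen. Some genes that the rule takes are not reported here by name.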

Additional observations from a re-analysis of the deposited data

Results flagged for a closer look

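Each gene here drew attention because its change with the IRF4 guide in RPMI-8226 differed from the mean change of H929, MM1S and OPM2 in the test of that difference itself (edgeR contrast of contrasts, adjusted over all tested genes). Of 189 named genes, 87 had a called difference, where 25% of all tested genes had one. Some were named by the p of this same test, so the 87 is no result about the named genes as a set. Differences of the genes fixed by name and the strongest differences are given, as RPMI-8226 minus the other lines on the log2 scale ± SE.

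The change was more positive in RPMI-8226 for HUNK 4.45 ± 0.31 (adjusted p = 4.22e-12), PRKCQ 3.32 ± 0.24 (adjusted p = 7.65e-12), TSPAN7 2.35 ± 0.19 (adjusted p = 8.58e-11), YES1 1.68 ± 0.12 (adjusted p = 7.07e-12) and BRIP1 1.58 ± 0.13 (adjusted p = 1.46e-10). The same held for WDR76 1.33 ± 0.10 (adjusted p = 4.77e-11), RRBP1 1.24 ± 0.09 (adjusted p = 9.61e-12), DCK 1.15 ± 0.09 (adjusted p = 9.69e-11) and BID 0.43 ± 0.11 (adjusted p = 0.00408).

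Among BCL2 family genes it was more negative for BCL2L1 -0.57 ± 0.09 (adjusted p = 1.63e-05), MCL1 -0.56 ± 0.13 (adjusted p = 0.0016), BBC3 -1.09 ± 0.22 (adjusted p = 0.000566), BAX -0.37 ± 0.12 (adjusted p = 0.0173), HRK -2.36 ± 0.64 (adjusted p = 0.0061) and BMF -1.36 ± 0.15 (adjusted p = 2.34e-07). HRK was at 0 in the MM1S EV libraries, so its difference depends on the prior count. MYC differed by -0.33 ± 0.11 (adjusted p = 0.032), where its log2 fold changes were -1.24 in H929, 0.42 in MM1S and -0.99 in OPM2.

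Among MAF-linked genes the change was more negative for NUAK1 -0.53 ± 0.13 (adjusted p = 0.00171), ITGB7 -0.92 ± 0.11 (adjusted p = 1.30e-07), DEPTOR -1.05 ± 0.09 (adjusted p = 6.06e-10), CX3CR1 -1.35 ± 0.48 (adjusted p = 0.0487) and MAF -1.48 ± 0.12 (adjusted p = 2.09e-10). MAF itself fell in RPMI-8226 and had positive log2 fold changes in each of the other lines (0.59 in H929, 1.13 in MM1S and 0.92 in OPM2). MM1S is a MAF line as well, so the contrast is not one of a MAF line against lines without MAF activation.

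It was more negative as well for MYLIP -1.95 ± 0.13 (adjusted p = 2.01e-12), ARHGEF3 -2.30 ± 0.10 (adjusted p = 2.86e-16), P2RX7 -2.40 ± 0.14 (adjusted p = 3.36e-13) and PAK1 -2.44 ± 0.16 (adjusted p = 2.01e-12), and for FARP1 -3.25 ± 0.17 (adjusted p = 2.50e-14), MAP3K20 -3.28 ± 0.20 (adjusted p = 4.36e-13), FHOD3 -3.53 ± 0.22 (adjusted p = 1.46e-12) and RALGPS2 -3.85 ± 0.20 (adjusted p = 2.07e-14).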

How the results depend on the processing

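The numbers of genes called higher (3162), lower (2425), more positive than in the other lines (2077) and more negative (2033) stayed within 1.5 times under every alternative run. Higher calls ran from 2224 with limma on the deposited log2 values to 3768 with the replicate block, and lower calls from 1704 without EV replicate 2 to 3149 in the blocked fit of the RPMI-8226 libraries alone. Lower calls outnumbered higher ones with limma (2386 against 2224) and in that blocked fit (3149 against 3088), and under no other alternative. Leaving out each library gave 2312 to 3240 higher and 1704 to 2497 lower genes, 1730 to 1958 more positive and 1688 to 1956 more negative ones. The replicate block gave 3768 higher and 3069 lower genes (41.5% called), and, fitted over all lines, ended no call of a named gene and added those of CCR1 and CX3CR1. In the RPMI-8226 libraries alone, with the block, the calls of BAX and WDR76 ended. Of 180 called named genes, 33 lost their call under some alternative. NTRK2, near 0 counts and not called, changed sign with the replicate block (-0.17), without IRF4 replicate 3 (-3.74), without EV replicate 2 (-0.02) and with limma on the log2 values (-0.66), from 0.44, and leaving out each library gave -3.74 to 1.06. The cause of these moves was not tested. Depth limits genes near 0, most in EV replicate 3. In simulated counts, where few genes were changed, 1.5-fold changes were recovered less often than 2-fold ones. The simulation did not score genes near 0 separately.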

Other observations

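Histone genes, a group chosen after their values were seen, rose in RPMI-8226. Of 41 tested genes whose symbols begin with HIST and a digit, 21 rose and 0 fell, and the median log2 fold change was 1.45. Among those of higher level were HIST1H1C from 24.7 to 122 CPM (log2 fold change 2.33 ± 0.22, adjusted p = 3.97e-07), HIST1H2BK from 41.9 to 119.6 CPM (log2 fold change 1.52 ± 0.23, adjusted p = 7.42e-05), HIST2H2BE from 4.57 to 27.2 CPM (log2 fold change 2.62 ± 0.39, adjusted p = 8.52e-05) and HIST1H2AC from 4.23 to 26.8 CPM (log2 fold change 2.67 ± 0.25, adjusted p = 6.39e-08). HIST1H1C also differed from the other lines, by 1.76 (adjusted p = 7.59e-05), and HIST2H2BE, HIST1H2BK and HIST1H2AC did not pass that test. At an unadjusted p under 0.05, 1 fell. Many histone RNAs lack a poly(A) tail, and whether poly(A) RNA was selected is not stated beyond the kit's name. Histone genes are close copies, so counts may be split between them.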
